A study of Mus musculus with 32 samples.

Results

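The genes described here encode the nuclear subunits of the mitochondrial respiratory chain and of the ATP synthase, with the assembly factors whose names share their stems. Members were taken by symbol from probes that carry exactly 1 gene name: symbols starting with Nduf (complex I), Sdha to Sdhd (complex II), Uqcr (complex III), Cox4 to Cox8 (complex IV) or Atp5 (ATP synthase). This gave 94 genes of the 18193 named genes on the RNA interference (RNAi) arrays, measured by 185 probe sets, while 10 probe sets that name a member together with another gene were left out. On the 2-colour arrays 89 members were annotated and 86 could be tested, of 12034 named genes, 2 of them pseudogenes (Atp5k-ps1 and Ndufs5-ps). Together the platforms held 97 members, 83 of them tested on both.

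All samples were E14TG2a mouse embryonic stem (ES) cells, an established line. For RNAi, cells were transfected by Lipofectamine 2000 with the empty pSUPER-puro plasmid (5 arrays), the plasmid against Nanog (5 arrays) or the plasmid against Pou5f1, the gene of Oct4 (4 arrays). All 3 groups were selected with 1 µg/ml puromycin from 24 h after transfection for 3 days. For differentiation, untagged E14 cells received 0.1 µM retinoic acid (RA), 1% dimethyl sulfoxide (DMSO) or 3 mM hexamethylene bisacetamide (HMBA), and were sampled on days 2, 4 and 6, with 2 arrays for each inducer and day. Each of these arrays set treated RNA against RNA of untreated E14 cells, with the treated RNA in Cy3 on the first array of a pair and in Cy5 on the second. RNAi values are log2 levels and 2-colour values are log ratios of treated over untreated cells, both as deposited. No label names the base of the ratios, and 2 was assumed. Differences are given in log2 ± standard error, and "called" means an adjusted p under 0.05 in a limma fit across all probes with Benjamini-Hochberg adjustment. The labels do not say that arrays of a group came from separate cultures, so p-values measure the spread between arrays.

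The respiratory chain passes electrons from NADH, through complex I, or from succinate, through complex II, to ubiquinone, then through complex III and cytochrome c to complex IV, which reduces oxygen. Complexes I, III and IV pump protons across the inner mitochondrial membrane, and the ATP synthase uses their return flow to make ATP. A few subunits are encoded by mitochondrial DNA and are no members here. The nuclear genes are known targets of the transcription factors NRF1, GABP and YY1, and ES cells are known to rely strongly on glycolysis.

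Promoter sequences from RefSeq (GRCm38.p6, a window that spans the annotated start) were found for 82 member genes, with 87 promoters. Motifs were searched on both strands. The NRF1 motif, GCGCA and GCGC with any base between them, was present in 22 of the 87 (25.3%), against 4.6% of all 32851 promoters of the table. The YY1 motif AANATGGC was present in 23% against 6.05%, the Sp1 motif GGGGCGGG in 25.3% against 16.5%, and the GABP motif CCGGAAGT in 5.75% against 3.89%. Among the 41 promoters of members called lower after Pou5f1 RNAi, 26.8% held the NRF1 motif, against 21.4% of the 42 promoters of the other members on those arrays. For YY1 these shares were 19.5% and 23.8%, for Sp1 29.3% and 23.8%, and for GABP 9.76% and 2.38%, or 4 promoters and 1. A match describes these letters only.

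The promoters of 3 genes are printed because these genes were called lower after Pou5f1 RNAi (Atp5h on 1 of its 2 probe sets) and with each of the inducers, and because their promoters show the motif combinations found. Capitals mark the motif matches, which do not overlap, and all are written 5′ to 3′ on the strand of the gene. In the promoter of Atp5h (chr11:115419870-115420169, minus strand) the first match is NRF1 and the second GABP, the latter on the opposite strand. In that of Ndufa6 (chr15:82354242-82354541, minus strand) the first is NRF1, on the opposite strand, and the second Sp1. In that of Ndufb5 (chr3:32736813-32737112, plus strand) both are YY1. Ndufa1 and Uqcr10, called in the same comparisons, held none of the 4 motifs in this window.
Atp5h: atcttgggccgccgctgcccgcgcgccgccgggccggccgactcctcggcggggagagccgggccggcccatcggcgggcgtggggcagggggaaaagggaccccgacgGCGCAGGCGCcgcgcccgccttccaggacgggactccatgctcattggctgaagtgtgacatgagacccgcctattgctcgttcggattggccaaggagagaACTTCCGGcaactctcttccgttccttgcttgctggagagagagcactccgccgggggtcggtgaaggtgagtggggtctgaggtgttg
Ndufa6: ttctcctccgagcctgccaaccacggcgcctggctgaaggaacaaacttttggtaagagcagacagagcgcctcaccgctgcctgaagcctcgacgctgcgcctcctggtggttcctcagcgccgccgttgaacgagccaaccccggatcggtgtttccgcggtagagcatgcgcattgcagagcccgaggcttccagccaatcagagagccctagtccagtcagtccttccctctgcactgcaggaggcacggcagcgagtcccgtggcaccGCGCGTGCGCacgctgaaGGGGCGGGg
Ndufb5: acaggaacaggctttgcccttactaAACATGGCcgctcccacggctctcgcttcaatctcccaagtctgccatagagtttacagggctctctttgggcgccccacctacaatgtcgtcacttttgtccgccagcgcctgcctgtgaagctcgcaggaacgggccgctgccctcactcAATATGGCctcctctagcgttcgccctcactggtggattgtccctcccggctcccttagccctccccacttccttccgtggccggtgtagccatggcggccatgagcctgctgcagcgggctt

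The labels of the knockdowns were checked against their targets. Pou5f1 differed by -2.38 ± 0.10 (adjusted p = 1.1e-13) after Pou5f1 RNAi and by -0.10 ± 0.10 (adjusted p = 0.61) after Nanog RNAi, while Nanog differed by -1.40 ± 0.09 and by -1.81 ± 0.08. The cell state moved with the knockdowns: the mean level over 8 trophectoderm markers lay at 5.24 to 5.33 on vector arrays, 6.16 to 6.67 after Nanog RNAi and 8.44 to 8.62 after Pou5f1 RNAi, and all 8 were called higher after the last. The mean over 8 ES cell markers lay at 11.27 to 11.40, 10.77 to 10.87 and 9.48 to 9.77 in the same order. This list includes Pou5f1 and Nanog, the targets themselves, so part of its fall was set by the knockdowns. Of its other genes, Sox2, Zfp42, Esrrb and Tdgf1 were called lower after both knockdowns, and Dppa5a and Utf1 after Pou5f1 RNAi only. Means over 8 primitive endoderm markers lay at 6.60 to 6.72, 6.90 to 7.17 and 6.17 to 6.26, and those over 8 fibroblast markers at 4.20 to 4.37, 4.16 to 4.31 and 4.22 to 4.25. The part of these shifts in the results below was not tested, and in bulk RNA fewer cells of a type and less RNA per cell cannot be told apart.

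After Pou5f1 RNAi more of these genes were called lower than higher. Of the 94 members 52 were called, 43 lower and 9 higher. Among all named genes 40.1% were called, 19.5% lower and 20.6% higher, so the members' 45.7% lower and 9.57% higher lay on opposite sides of the background. The mean level over members was 9.63 to 9.80 on the vector arrays, against a median of 5.51 to 5.57 over all named genes. The background in this and the other RNAi comparisons is therefore not matched for level. The median difference over the members was -0.18, against -0.04 over all named genes, and the range was -0.87 to 0.33. On 39 members every Pou5f1 RNAi array lay below every vector array, on 9 every one lay above, and on 46 the groups overlapped. This was not counted over all named genes, so these counts have no background and describe the members only. Each gene is given by its probe set of highest mean level. For 32 members another probe set lay within 1 log2 unit of it on the vector arrays, a limit chosen after the values were seen. Of the 16 of these that were called, 4 (Atp5d, Atp5h, Atp5k and Ndufc2) had such a set without a call, and of the 16 not called 3 (Cox6c, Ndufb7 and Uqcrc2) had such a set with one.

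**Figure D1:**
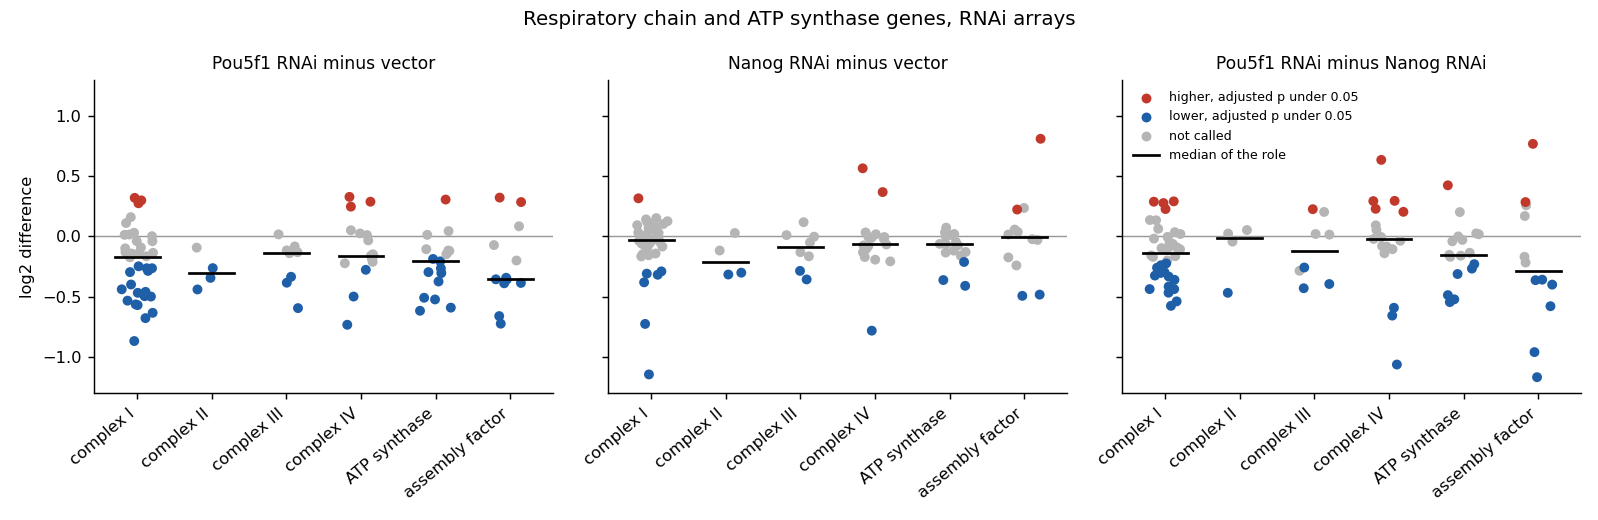
Log2 difference (vertical axis) of each of the 94 members on the RNAi arrays, by role (horizontal axis), for Pou5f1 RNAi minus vector, Nanog RNAi minus vector and Pou5f1 RNAi minus Nanog RNAi; red and blue points were called higher and lower, and black bars are medians. Blue points are most frequent in the first panel, with 43 called lower, and fewer in the second, with 16.

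Complex I, the largest role, accounted for the largest number, with 17 of 36 genes lower and 3 higher after Pou5f1 RNAi. Its share lower, 47.2%, was near the 45.7% of all members. The shares were 75% for complex II, 58.8% for the ATP synthase, 58.3% for the assembly factors, 37.5% for complex III and 17.6% for complex IV. Ndufb5, an accessory subunit of the membrane arm, read 10.26, 10.15, 10.41, 10.42 and 10.32 on the vector arrays and 9.60, 9.68, 9.70 and 9.56 after Pou5f1 RNAi. The groups did not overlap, and Ndufb5 fell by 0.68 ± 0.08 (adjusted p = 3.8e-07), to 1.60-fold less, with its other probe set at -0.80. Ndufs4, an accessory subunit of the electron-input arm, fell by 0.63, Ndufa1 by 0.57, Ndufb10 by 0.56 and Ndufb3 by 0.53. Ndufv3, at the NADH-oxidizing end of the complex, read 10.62 to 10.82 on the vector arrays and 10.14 to 10.28 after Pou5f1 RNAi, and fell by 0.50 ± 0.07 (adjusted p = 5.7e-06). The risers were Ndufa3 (0.32 ± 0.08, adjusted p = 0.0018), Ndufs8 (0.30 ± 0.09, adjusted p = 0.0093) and Ndufa8 (0.28). Ndufs8 is a core iron-sulfur subunit, Ndufa3 and Ndufa8 are accessory ones. The other core subunits measured, Ndufs1, Ndufs3, Ndufs7, Ndufv1 and Ndufv2, differed by -0.17 to 0.11, with none called.

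Ndufa4l2, a paralog of Ndufa4 known to be induced by hypoxia, gave the largest fall in this comparison among the probe sets that stand for the members. It read 6.82, 6.68, 6.87, 6.79 and 7.12 on the vector arrays and 6.09, 6.03, 6.02 and 5.82 after Pou5f1 RNAi. All of the latter lay below the former, with a difference of -0.87 ± 0.10 (adjusted p = 2.5e-07), 1.83-fold. Ndufa4, named for complex I but now assigned to complex IV, differed by -0.29 ± 0.07 (adjusted p = 0.0031). It is counted here with complex I by its name. Placed in complex IV it would make 16 of 35 genes lower in complex I and 4 of 18 in complex IV.

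Complex II, which also acts in the citric acid cycle, had 3 of its 4 genes lower. Sdhd, a membrane anchor, read 9.68 to 10.09 on the vector arrays and 9.41 to 9.48 after Pou5f1 RNAi, without overlap, and fell by 0.44 ± 0.09 (adjusted p = 0.00053). The other anchor, Sdhc, fell by 0.34 ± 0.10 (adjusted p = 0.014). The iron-sulfur subunit Sdhb differed by -0.26 ± 0.09 (adjusted p = 0.024), but its arrays overlapped, and its call was lost after median centring of the arrays (adjusted p = 0.052) or without the fourth vector array or the first or second Pou5f1 RNAi array (up to 0.11). The flavoprotein Sdha differed by -0.09 ± 0.08 (adjusted p = 0.46). In complex III 3 of 8 genes were lower: Uqcr11 by 0.60, Uqcrh by 0.38 and Uqcr10 by 0.34, with overlapping arrays for Uqcr10. These 3 are small or accessory subunits. Of the catalytic ones, Uqcrfs1 differed by -0.12 (adjusted p = 0.36). Cyc1, the cytochrome c1 of this complex, is no member by its symbol but was called lower. Of the genes of the core proteins, Uqcrc1 differed by 0.02, and Uqcrc2 by -0.13 (adjusted p = 0.19) on the probe set that stands for it and by -0.32 ± 0.10 (adjusted p = 0.02, called) on another at a similar level.

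Complex IV had 3 genes lower and 3 higher of 17, or 17.6% each way. These shares lay near the 19.5% lower and 20.6% higher of all named genes. The risers were subunits of the common enzyme. Cox4i1, the ubiquitous form of subunit 4, read 11.94, 11.93, 12.04, 12.21 and 12.15 on the vector arrays and 12.40, 12.36, 12.49 and 12.28 after Pou5f1 RNAi. Every Pou5f1 RNAi array lay above every vector array, and Cox4i1 rose by 0.33 ± 0.08 (adjusted p = 0.0026). Cox5b rose by 0.29 ± 0.08 (adjusted p = 0.0052) and Cox6b1 by 0.25 ± 0.08 (adjusted p = 0.015), the latter with an adjusted p of 0.065 without the third Pou5f1 RNAi array. The genes that fell were Cox6b2, Cox7b2 and Cox8a. Cox6b2, the testis form of the subunit whose common form is Cox6b1, read 8.22 to 8.57 on vector arrays and 7.47 to 7.82 after Pou5f1 RNAi, without overlap, and fell by 0.73 ± 0.10 (adjusted p = 2.9e-06), so the members of this pair moved in opposite directions. Cox7b2 fell by 0.50 from a listed level of 3.66, and Cox8a by 0.28.

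The tissue forms of complex IV subunits were examined as sets. The hypoxia-linked Cox4i2 (-0.17 ± 0.08, adjusted p = 0.12), the muscle forms Cox6a2 (-0.16 ± 0.09, adjusted p = 0.22), Cox7a1 (-0.15 ± 0.13, adjusted p = 0.43) and Cox8b (-0.03 ± 0.11, adjusted p = 0.87) and the testis form Cox8c (-0.19 ± 0.11, adjusted p = 0.24) were not called after Pou5f1 RNAi. Of these, Cox4i2, Cox6a2 and Cox8b had low listed levels, with vector means of 4.84, 5.40 and 4.78. The median of all named genes was 5.51 to 5.57 on the vector arrays. A missing call for such low genes says little, with either knockdown. The common forms Cox6a1 (0.05), Cox7a2 (-0.16) and Cox7a2l (0.03), the last also known as a factor of supercomplex formation, were not called after Pou5f1 RNAi either.

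Of the 17 ATP synthase genes 10 were lower and 1 was higher. The genes Atp5g1, Atp5g2 and Atp5g3 encode the same mature c subunit of the membrane ring, and they did not move together. Atp5g1 read 10.57 to 10.86 on vector arrays and 10.15 to 10.35 after Pou5f1 RNAi (-0.51 ± 0.08, adjusted p = 2.6e-05), Atp5g2 read 10.79 to 11.05 and 10.38 to 10.53 (-0.52 ± 0.08, adjusted p = 1.7e-05). Both pairs of groups were separate, whereas Atp5g3 read 12.24 to 12.47 and 12.29 to 12.51, which overlap (0.04 ± 0.07, adjusted p = 0.73). Atp5j2 fell by 0.62, Atp5e by 0.59 and Atp5j by 0.37. The F1 subunits of the catalytic head differed by -0.30 for Atp5a1, which was called, and by -0.11 for Atp5b, which was not. Atp5d, a subunit of the central stalk, rose by 0.31 ± 0.08 (adjusted p = 0.0062), but its second probe set read -0.01, and the mean of both gave 0.15 (adjusted p = 0.062).

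The assembly factors were the group with the lowest median, -0.35, and 7 of 12 were lower with 2 higher. Ndufaf2, which helps to build complex I, read 8.25 on average on vector arrays, all above the 7.32 to 7.63 after Pou5f1 RNAi (-0.72 ± 0.09, adjusted p = 1.9e-06). Ndufaf6 read 7.35 to 7.90 and 6.73 to 7.09 (-0.66 ± 0.11, adjusted p = 4.2e-05). Neither pair overlapped. Sdhaf2, needed to attach the flavin to Sdha, rose by 0.32 ± 0.08 (adjusted p = 0.0042), and Ndufaf3, an early complex I factor, by 0.28. Ndufaf4, another complex I factor, fell by 0.36 ± 0.08 (adjusted p = 0.00069), and its second probe set, at a lower level (7.65 on vector arrays), fell by 1.14 ± 0.10 (adjusted p = 4.8e-09), more than any other probe set of a member.

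**Figure D2:**
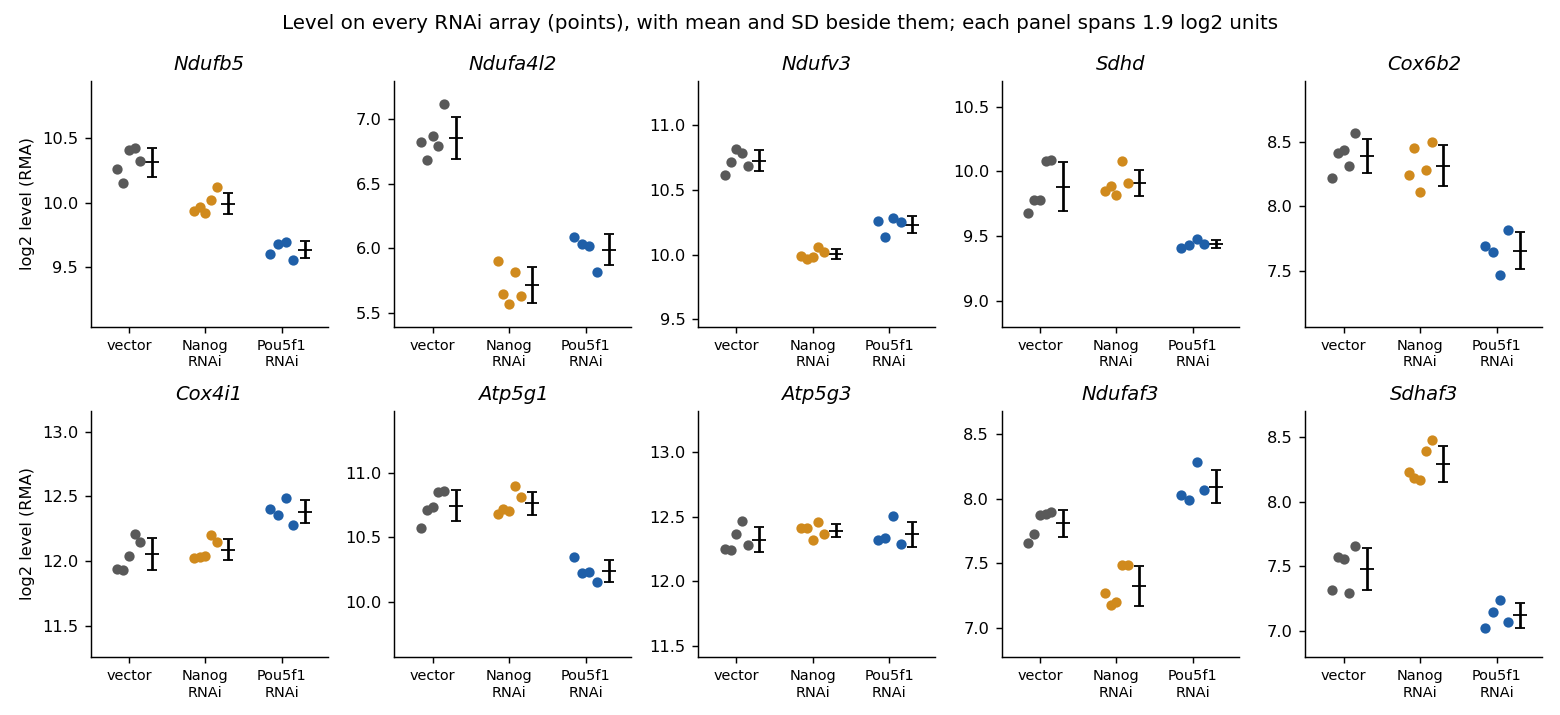
Log2 level (vertical axis) of 10 members on every array of the vector, Nanog RNAi and Pou5f1 RNAi groups (horizontal axis), with mean and SD beside the points. Ndufb5, Sdhd, Cox6b2 and Atp5g1 are lowest after Pou5f1 RNAi, Cox4i1 is highest there, Atp5g3 overlaps in all groups, and Ndufaf3 and Sdhaf3 move to opposite sides of the vector in the 2 knockdowns.

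Nanog RNAi changed fewer of these genes. Of the 94 members 21 were called, 16 lower and 5 higher, and the 22.3% called lay close to the 20.8% of all named genes. By direction the shares differed: 17% of the members were lower and 5.32% higher, against 8.77% and 12.1% of all named genes. The median over members was -0.05 against -0.02. This comparison and the one before share the vector arrays, so their values are set side by side and the direct test follows. Complex I had 6 genes lower (Ndufa4l2, Ndufa7, Ndufb5, Ndufs4, Ndufv2 and Ndufv3) and 1 higher, the ATP synthase 3 lower (Atp5c1, Atp5g2 and Atp5h), complex II 2 lower (Sdhb and Sdhc), complex III 2 lower (Uqcrc2 and Uqcrq), complex IV 1 lower and 2 higher, and the assembly factors 2 each way. Of the 7 called members with another probe set at a similar level, 4 (Atp5h, Ndufb5, Sdhc and Uqcrc2) had such a set without a call.

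Ndufa4l2 read 5.90, 5.65, 5.57, 5.82 and 5.63 after Nanog RNAi, all below the vector arrays, and fell by 1.14 ± 0.09 (adjusted p = 1.1e-08), 2.21-fold. Cox7a1, the muscle form of subunit 7a, read 6.97, 7.12, 7.06, 6.95 and 7.23 on vector arrays and 5.94, 6.29, 6.07, 6.42 and 6.70 after Nanog RNAi, without overlap (-0.78 ± 0.12, adjusted p = 6.6e-05). Ndufv3 read 9.97 to 10.06, all below the vector arrays (-0.73 ± 0.07, adjusted p = 7.8e-08). Ndufaf6 (-0.49 ± 0.10, adjusted p = 0.0015) and Ndufaf3 (-0.48 ± 0.09, adjusted p = 0.00036) were the next falls. In complex II, Sdhb (-0.32 ± 0.08, adjusted p = 0.01) and Sdhc (-0.30 ± 0.10, adjusted p = 0.043) were lower, the latter with overlapping arrays and an adjusted p of 0.086 after median centring. The call of Sdhc was also lost without vector array 3, 4 or 5 (-0.24, adjusted p = 0.11 without the fifth) and without array 1, 2 or 3 of Nanog RNAi or of Pou5f1 RNAi, whose arrays enter through the shared spread.

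The largest rise was that of Sdhaf3, which helps to insert the iron-sulfur clusters of Sdhb. It read 7.32, 7.57, 7.56, 7.29 and 7.66 on the vector arrays and 8.23, 8.18, 8.17, 8.39 and 8.48 after Nanog RNAi, without overlap (0.81 ± 0.09, adjusted p = 1.1e-06). Cox7b2 rose by 0.56 ± 0.09 (adjusted p = 0.00012) from a low listed level, 3.53 to 3.80 on vector arrays. Ndufs8 rose by 0.32 ± 0.08 (adjusted p = 0.0087), with 10.18 to 10.49 on vector and 10.58 to 10.86 on Nanog RNAi arrays. Cox7c (0.37 ± 0.10, adjusted p = 0.016), also at a low listed level (5.16 to 5.71 on vector arrays), overlapped between groups. Without the first Nanog RNAi array its adjusted p was 0.054. Ndufaf4 (0.22 ± 0.07, adjusted p = 0.035) had an adjusted p of up to 0.097 when vector array 1, 4 or 5 or Nanog RNAi array 1, 2 or 5 was left out. Of the isoform sets, Cox4i1 (0.03 ± 0.08, adjusted p = 0.85), Cox4i2 (-0.13), Cox6a1 (adjusted p = 0.99), Cox6a2 (-0.02), Cox6b1 (0.02), Cox6b2 (-0.08), Cox7a2 (-0.08), Cox7a2l (-0.07), Cox8a (-0.17), Cox8b (-0.01), Cox8c (-0.10), Ndufa4 (0.15), Atp5g1 (0.01), Atp5g3 (0.07), Sdha (-0.12) and Sdhd (0.03) were not called, while Atp5g2 fell by 0.36 ± 0.07 (adjusted p = 0.0015).

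The knockdowns were compared directly. Of the 94 members 46 were called, 33 lower and 13 higher in Pou5f1 RNAi than in Nanog RNAi cells, or 48.9% against 37.4% of all named genes. By direction 35.1% of the members were lower and 13.8% higher, against 18.6% and 18.8% of all named genes. Of the 15 called members with another probe set at a similar level, 8 (Atp5d, Atp5k, Cox5a, Cox5b, Ndufa5, Ndufc2, Uqcrc2 and Uqcrh) had such a set without a call. Among the probe sets that stand for the members Sdhaf3 differed most (-1.17 ± 0.09, adjusted p = 2.6e-09), with 7.02 to 7.24 after Pou5f1 RNAi and 8.17 to 8.48 after Nanog RNAi. The second probe set of Ndufaf4 differed more (-1.28 ± 0.10, adjusted p = 9.4e-10), and its first by -0.58. Cox7b2 differed by -1.06 ± 0.10 (adjusted p = 1.5e-08), Ndufaf2 by -0.96 ± 0.09 (adjusted p = 4e-08), Cox6b2 by -0.66 ± 0.10 (adjusted p = 1.3e-05) and Cox7c by -0.59 ± 0.11 (adjusted p = 0.00018). Of these, Cox7b2 and Cox7c had low listed levels, with vector means of 3.66 and 5.42. Higher after Pou5f1 RNAi were Ndufaf3 (0.77 ± 0.09, adjusted p = 7.9e-07), Cox7a1 (0.64 ± 0.13, adjusted p = 0.0004), Atp5d (0.42 ± 0.08, adjusted p = 0.00036), Cox4i1 (0.30 ± 0.08, adjusted p = 0.0065) and Cox5b (0.29 ± 0.08, adjusted p = 0.0048). Ndufaf3 read 7.99 to 8.28 after Pou5f1 RNAi, 7.66 to 7.90 on vector arrays and 7.18 to 7.49 after Nanog RNAi, so that no 2 groups overlapped.

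Other mitochondrial gene lists were read in the same fits, where 40.1% of all named genes were called after Pou5f1 RNAi and 20.8% after Nanog RNAi. Of 76 mitochondrial ribosome genes (symbols in Mrpl and Mrps) 51 were lower and 6 higher after Pou5f1 RNAi, with a median of -0.32, and 11 were lower and 7 higher after Nanog RNAi, or 75% and 23.7% called. Of 17 glycolysis genes 11 were lower and 3 higher after Pou5f1 RNAi, and 12 lower and 1 higher after Nanog RNAi, or 82.4% and 76.5% called. Pdk1, the kinase that keeps pyruvate out of the citric acid cycle, fell by 1.42 ± 0.11 and by 1.43 ± 0.10, while the glucose transporter Slc2a1 rose by 0.74 ± 0.07 after Pou5f1 RNAi. Slc2a1 gave 0.12 ± 0.06 (adjusted p = 0.25) after Nanog RNAi, and the knockdowns differed by 0.62 ± 0.07 (adjusted p = 3.6e-07). Of 17 genes of the citric acid cycle, pyruvate dehydrogenase and pyruvate carboxylase, 7 were lower and 6 higher after Pou5f1 RNAi. After Nanog RNAi 5 were lower and 2 higher, and the shares called were 76.5% and 41.2%. Lower after Pou5f1 RNAi were Pdha1, Pdhb and Dlat of pyruvate dehydrogenase, the carboxylase Pcx, and Suclg1, Suclg2 and Fh1 of the cycle. Higher were Cs, Idh2, Ogdh, Dlst, Dld and Mdh2. Of 21 genes for assembly of complexes III and IV, cytochrome c and cytochrome c1, 8 were lower and 4 higher, then 4 and 5 (57.1% and 42.9% called). Of those for complex III, Cyc1 and Uqcc2 were lower and Uqcc1 higher after Pou5f1 RNAi, and Uqcc2 was lower after Nanog RNAi. Of 9 carriers and porins 1 was lower and 3 higher, then 1 and 1, and their 44.4% and 22.2% called lay close to the shares of all named genes.

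Among 20 regulators of mitochondrial genes, 7 were lower and 5 higher after Pou5f1 RNAi, and 5 lower and 1 higher after Nanog RNAi (60% and 30% called). The factors whose motifs were searched above were among them. Nrf1 fell by 0.70 ± 0.07 (adjusted p = 1e-07), Gabpa, the DNA-binding subunit of GABP, by 0.76 ± 0.08 (adjusted p = 1.3e-07) and Tfam, which maintains mitochondrial DNA, by 0.41 ± 0.09 (adjusted p = 0.00067) after Pou5f1 RNAi, and Yy1 rose by 0.50 ± 0.08 (adjusted p = 2.9e-05). After Nanog RNAi Nrf1 (-0.07) and Tfam (-0.08) were not called, while Gabpa fell by 0.33 ± 0.08 (adjusted p = 0.004) and Yy1 by 0.35 ± 0.07 (adjusted p = 0.0022). Hif1a, the oxygen-regulated factor known to induce Ndufa4l2, rose by 0.30 ± 0.08 (adjusted p = 0.0075) after Pou5f1 RNAi, where Ndufa4l2 fell. With the inducers Nrf1, Gabpa, Tfam and Yy1 were not called in the fit without a term for dye orientation. Other regulators of the list were called there. Esrrb and Mycn were lower with RA, DMSO and HMBA, Pprc1 with DMSO and HMBA, and Myc with DMSO, while Ppard and Ppargc1a were higher with HMBA. Whether these changes bear on the members was not tested.

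With each chemical inducer more members were called lower than higher, while the share called either way was below that of all named genes with RA and DMSO and close to it with HMBA. RA gave 19 of 86 lower and 1 higher over the mean of days 2, 4 and 6, or 23.3% called against 27.5% of all named genes, and 22.1% lower against 10.5%. DMSO gave 12 lower and 1 higher (15.1% against 19.3%, and 14% lower against 8.6%), and HMBA 24 lower and 1 higher (29.1% against 28.2%, and 27.9% lower against 12.8%). The higher genes among all were 17%, 10.7% and 15.5%, against 1.16% of the members each time. The median log ratio over members was -0.21 with RA, -0.12 with DMSO and -0.22 with HMBA, against 0.01, 0.02 and 0.00 over all named genes. Leaving out single arrays moved the counts to 12 for RA without the second day 6 array, to 8 for DMSO without the first day 2 array, and for HMBA to 15, 14 and 15 without the first day 2, the second day 4 or the second day 6 array. All 3 series share the untreated cells as reference, so they are not independent of each other.

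The dye orientation touched these counts. Arrays of the same orientation deviated together, so it was also fitted as a term: then 45 members were lower and 2 higher with RA, 34 and 4 with DMSO, and 46 and 3 with HMBA, and 52.6%, 45.1% and 52.9% of all named genes were called, with 22.8%, 20.2% and 25.5% lower and 29.9%, 25% and 27.4% higher. Within the arrays with treated RNA in Cy3 the median over members was -0.12, -0.07 and -0.19 for RA, DMSO and HMBA, and within those with it in Cy5 -0.35, -0.23 and -0.29. The mean had opposite signs in the 2 orientations for 41, 45 and 37 of 86 members, so the strength of a single gene's ratio was read only from both. Of the ES cell markers 7, 7 and 8 of 8 were called lower with RA, DMSO and HMBA, with list means of -1.92 to -1.07, -2.68 to -1.36 and -2.44 to -1.44 over the arrays. List means of 6 measured trophectoderm markers were 0.91 to 1.83, -0.01 to 0.89 and 0.68 to 1.81, of 6 primitive endoderm markers 0.37 to 1.93, 0.10 to 0.78 and 0.34 to 0.94, and of 6 fibroblast markers 0.63 to 2.04, -0.33 to 0.47 and 0.20 to 0.99. Their part in the members' shift was not tested.

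**Figure D3:**
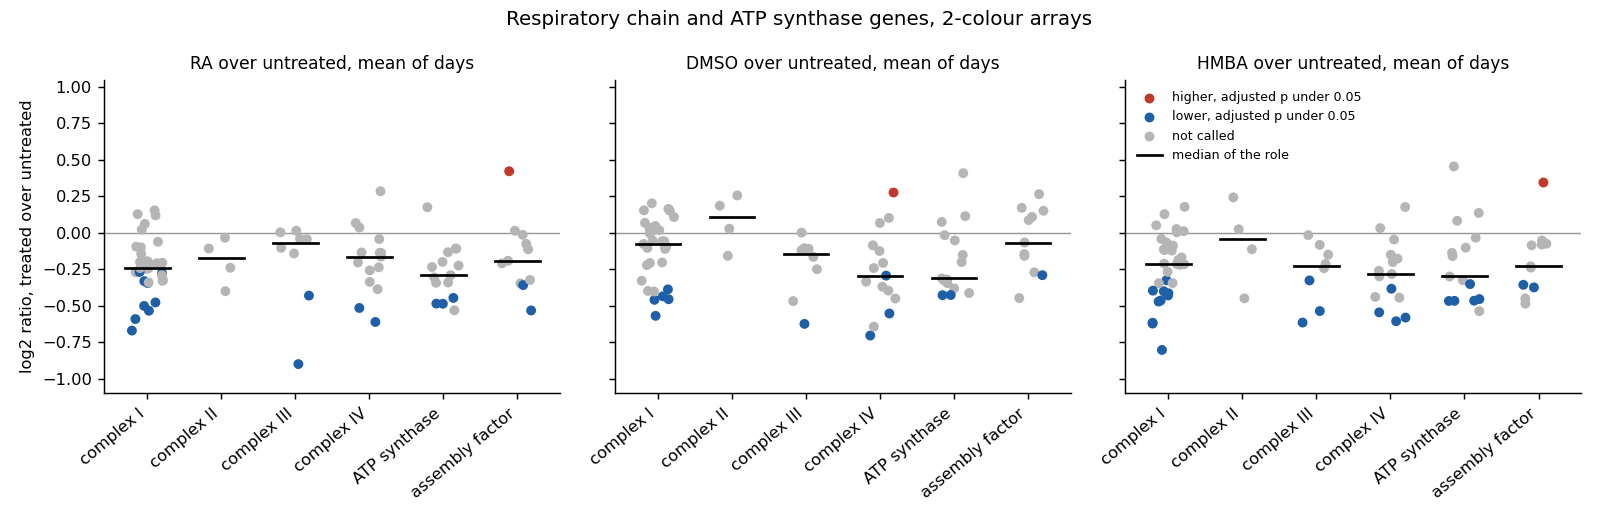
Log2 ratio of treated over untreated cells, mean of days (vertical axis), of the members on the 2-colour arrays by role (horizontal axis) for RA, DMSO and HMBA; red and blue points were called higher and lower without the dye term, black bars are medians, and the 2 pseudogenes are not drawn. Most points lie below 0 in each panel, and the called ones are blue but for Sdhaf2 with RA and HMBA and Cox7a2l with DMSO.

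Complex I held the largest number of falls of any role, 9 of the 19 with RA, 5 of the 12 with DMSO and 10 of the 24 with HMBA. As a share of its 31 genes this was 29%, 16.1% and 32.3%, against 26.7%, 13.3% and 33.3% of the ATP synthase genes, 25%, 12.5% and 37.5% of the 8 of complex III and 13.3%, 20% and 26.7% of those of complex IV. Ndufb5 ranged over 6 arrays from -0.72 to -0.14 with RA (median -0.57), -1.06 to -0.11 with DMSO (median -0.60) and -1.01 to -0.61 with HMBA (median -0.84). It was below 0 on all 18 arrays, with means of -0.50 ± 0.10, -0.57 ± 0.10 and -0.80 ± 0.10 (adjusted p = 0.0027, 0.0017 and 7.8e-05), the last being 1.75-fold. Ndufa6, an accessory subunit of the matrix arm, was also below 0 on all arrays, with means of -0.54 ± 0.09, -0.46 ± 0.09 and -0.62 ± 0.09 (adjusted p = 0.00053, 0.0024 and 0.00016). Ndufb4 gave -0.59 ± 0.09, -0.44 ± 0.09 and -0.62 ± 0.09 (adjusted p = 0.00048, 0.006 and 0.00033), and its RNAi probe set, with listed levels of 3.48 to 3.98, showed no call. Ndufa7 fell most with RA, -0.76 to -0.48 over the arrays with a mean of -0.67 ± 0.11 (adjusted p = 0.00073), and gave -0.33 with DMSO, called only with the dye term (adjusted p = 0.0051), and -0.43 with HMBA, called. Ndufa1 lay below 0 on all 18 arrays, with means of -0.34, -0.46 and -0.47, all called.

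No gene of complex II was called in any inducer. Sdha (-0.11, 0.19 and 0.24 with RA, DMSO and HMBA), Sdhc (-0.24, 0.03 and 0.02) and Sdhd (-0.03, 0.26 and -0.11) took both signs, with standard errors of 0.10 to 0.25. At an unadjusted p under 0.05 limma gave 0, 1 and 0 of the 4 genes with RA, DMSO and HMBA. With the dye term Sdhb was called with RA (-0.40, adjusted p = 7.7e-05) and HMBA (-0.45, adjusted p = 2.1e-05), and Sdhd was higher with DMSO (0.26, adjusted p = 0.0087). Sdhb gave -0.40, -0.16 and -0.45 in the fit without it.

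In complex III, Uqcrq, a small subunit that sits beside cytochrome b, gave the largest fall of all members with RA. Its ratios were -0.64 and -0.32 on day 2, -0.62 and -1.39 on day 4 and -0.87 and -1.56 on day 6, with a mean of -0.90 ± 0.18 (adjusted p = 0.0023), 1.87-fold. With HMBA it gave -0.62 ± 0.18 (adjusted p = 0.022, up to 0.13 without the second array of day 2, 4 or 6), and with DMSO -0.47 ± 0.18 (adjusted p = 0.097, and 0.00061 with the dye term). Uqcr10 lay below 0 on all arrays of all inducers, with means of -0.43 ± 0.14, -0.63 ± 0.14 and -0.54 ± 0.14 (adjusted p = 0.038, 0.0074 and 0.012).

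In complex IV the common forms differed among themselves. Cox6c lay at -0.73 to -0.47 with RA, -0.77 to -0.23 with DMSO and -0.75 to -0.52 with HMBA, with means of -0.61, -0.55 and -0.61 (each ± 0.08, adjusted p = 6.7e-05, 0.00023 and 6.9e-05). Cox7c was lower in all 3 as well (-0.52, -0.29 and -0.55, all called). Cox4i1 gave -0.54 and -0.59, -0.88 and -0.66, and -0.66 and -0.89 on days 2, 4 and 6 of DMSO, with a mean of -0.70 ± 0.09 (adjusted p = 9.8e-05), and -0.58 ± 0.09 (adjusted p = 0.00028) with HMBA. With RA it gave -0.20 and -0.60 on day 2, -0.34 and -0.22 on day 4 and 0.26 and 0.29 on day 6, so the arrays passed from below 0 to above 0, with a mean of -0.14 ± 0.09 (adjusted p = 0.3). Cox7a2l rose with DMSO (0.28 ± 0.08, adjusted p = 0.032) on 6 of 6 arrays, with an adjusted p of up to 0.16 without either day 2 array, the second of day 4 or the first of day 6. Of the other forms, Cox4i2 gave 0.28 with RA (adjusted p = 0.052), -0.09 with DMSO and -0.28 with HMBA (adjusted p = 0.054), and Cox6a1, Cox6a2, Cox6b1, Cox7a1, Cox7a2, Cox8a, Cox8b and Cox8c were not called without the dye term, with means from -0.45 to 0.10. With the dye term Cox4i2 was higher with RA and lower with HMBA (adjusted p = 0.011 for each), Cox6a2 was lower with all 3 inducers, Cox6a1 and Cox7a1 with RA and DMSO, and Cox7a2 and Cox8b with HMBA.

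In the ATP synthase 4 of 15 genes were lower with RA, 2 with DMSO and 5 with HMBA, and none was higher. Atp5h, a part of the stalk that holds the head in place, lay at -0.72 to -0.19 with RA, -0.65 to -0.23 with DMSO and -0.72 to -0.33 with HMBA, with means of -0.49, -0.43 and -0.46 (each ± 0.09, adjusted p = 0.002, 0.0068 and 0.0031). Atp5g2 gave -0.53 ± 0.20 with RA (adjusted p = 0.07, and 0.00019 with the dye term), -0.05 with DMSO and -0.33 with HMBA, and Atp5g1 gave -0.29, -0.15 and -0.10. With the dye term Atp5g2 was also called with HMBA (adjusted p = 0.01) and Atp5g1 with RA (adjusted p = 0.022). Atp5d read -0.42 to 0.13 on the arrays with treated RNA in Cy3 and 0.35 to 1.42 on those with it in Cy5, and was called, as higher, with DMSO and HMBA only with the dye term (adjusted p = 0.0016 and 0.00047).

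Of the assembly factors Sdhaf2 was higher with RA (0.42 ± 0.09, adjusted p = 0.0046) and HMBA (0.35 ± 0.09, adjusted p = 0.015, up to 0.087 without the second day 2, first day 4 or second day 6 array), above 0 on 6 of 6 arrays each, and gave 0.17 with DMSO, not called. Ndufaf6 lay at -0.65 to -0.44 with RA (-0.53 ± 0.11, adjusted p = 0.0031), at -0.10 to 0.53 with DMSO (0.15 ± 0.11, adjusted p = 0.44) and at -0.83 to 0.22 with HMBA (-0.24 ± 0.11, adjusted p = 0.15, and 0.0081 with the dye term).

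Direct comparisons of the inducers called few members. RA differed from DMSO in 2 of 86 (2.33% against 6.48% of all named genes): Ndufaf6 was lower with RA (-0.68 ± 0.15, adjusted p = 0.019) and Cox4i1 higher (0.57 ± 0.12, adjusted p = 0.013). RA differed from HMBA in Cox4i2, which was higher with RA (0.57 ± 0.14, adjusted p = 0.046, or 1.16% against 3.14%). Without single arrays the first count was 1 to 3, being 1 when the second RA day 4 or day 6 array, the first DMSO day 2 or day 6 array or the second DMSO day 6 array was left out. The second count was 0 in all but 2 of 18 such fits, and was 2 without the second RA day 2 array. DMSO against HMBA gave 0 calls in limma (1.75% of all named genes), 5 members at an unadjusted p under 0.05, and 2 with the dye term (11.4% of all named genes), Sdhd (0.37) and Ndufaf6 (0.39). With the dye term RA against DMSO gave 9 members and RA against HMBA 6, of 23.6% and 16.9% of all named genes, and Cox4i1 was then higher with RA than with HMBA too (0.45 ± 0.11, adjusted p = 0.0078). The median standard error of these differences was 0.18 without the dye term. In that fit Atp5g2, at -0.48 between RA and DMSO, was not called, so differences well above the standard error could be missed here.

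Changes with time were tested as day 6 minus day 2. In limma 0 of 86 members were called with RA, DMSO or HMBA, where 1.34%, 1.13% and 1.75% of all named genes were, and 5, 2 and 4 members had an unadjusted p under 0.05. The median standard error was 0.30. With the dye term 4 members were called with RA (Ndufa3 0.93, Sdhaf4 0.75, Uqcrc1 0.75 and Cox4i1 0.67, all higher on day 6), 1 with DMSO (Uqcrq, lower by 0.75) and 4 with HMBA (Ndufa3 and Sdhaf1 higher by 0.69 and 0.65, Ndufaf6 and Cox7c lower, at -0.73 and -0.57), against 12.2%, 10.8% and 11.3% of all named genes. The median ratio over members on single arrays was -0.30 and -0.37 on day 2 of RA and -0.02 and -0.28 on day 6, while with HMBA it was -0.14 and -0.24 on day 2 and -0.26 and -0.38 on day 6.

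**Figure D4:**
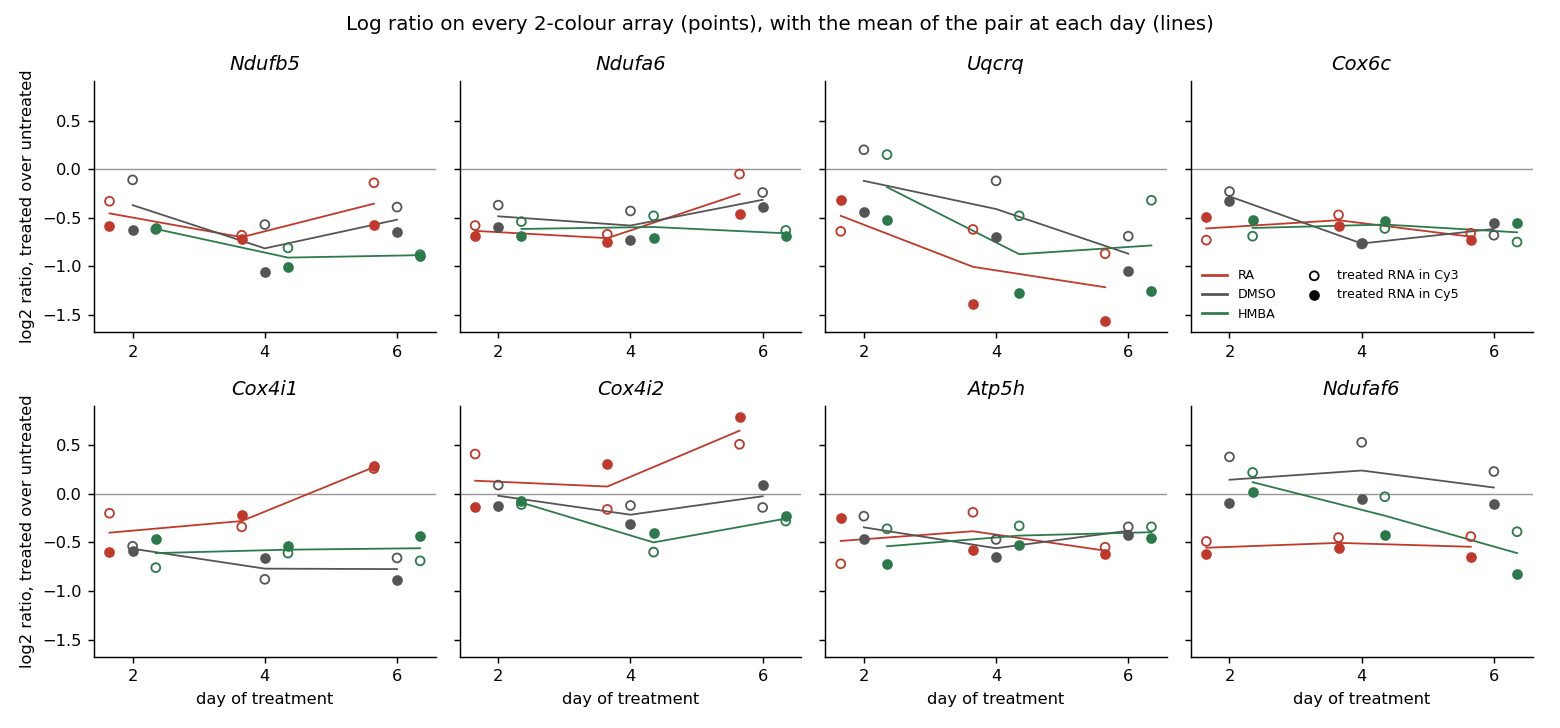
Log2 ratio of treated over untreated cells (vertical axis) of 8 members by day of treatment (horizontal axis), with open points for treated RNA in Cy3, filled points for Cy5 and lines through the mean of each pair. Ndufb5, Ndufa6, Cox6c and Atp5h lie below 0 on every array, Cox4i1 rises above 0 on day 6 of RA only, and on days 4 and 6 the filled points of Uqcrq lie below the open ones.

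The platforms share no arrays, so the calls of the knockdowns and of the inducers were set against each other over the 83 genes on both. After Pou5f1 RNAi 35 of these were lower and with RA 18, with 10 in both, or 28.6% of the first list and 55.6% of the second. The share lower after Pou5f1 RNAi among all 83 was 42.2%, which is the background for the second percentage here and in the next sentence. With DMSO 6 of 12 were shared (17.1% and 50%) and with HMBA 9 of 23 (25.7% and 39.1%). The shares with DMSO and HMBA lay near that background. For Nanog RNAi, with 15 of the 83 lower (18.1%), 5 were shared with RA, 2 with DMSO and 5 with HMBA, or 27.8%, 16.7% and 21.7% of the inducers' lists. With the dye term the lists of RA, DMSO and HMBA held 43, 33 and 44 genes, of which 22, 13 and 19 (51.2%, 39.4% and 43.2%) were lower after Pou5f1 RNAi. Atp5h, Ndufa1, Ndufa6, Ndufb5 and Uqcr10 were called lower after Pou5f1 RNAi and with all 3 inducers, and their RNAi values were -0.19 ± 0.07, -0.57 ± 0.08, -0.44 ± 0.09, -0.68 ± 0.08 and -0.34 ± 0.12. The call of Atp5h after RNAi (adjusted p = 0.041) held on 1 of its probe sets, and the other, at a similar level, gave -0.09 ± 0.07 (adjusted p = 0.39). Some genes had opposite calls on the platforms. Cox4i1 was higher after Pou5f1 RNAi and lower with DMSO and HMBA. Cox5b was higher after Pou5f1 RNAi and lower with HMBA (-0.38 ± 0.11, adjusted p = 0.024), and with the dye term also lower with RA and DMSO. Cox7c was higher after Nanog RNAi and lower with all 3 inducers, but its RNAi probe set had a low listed level, 5.16 to 5.71 on vector arrays. Sdhd, lower after Pou5f1 RNAi, and Ndufaf3, lower after Nanog RNAi, were higher with DMSO once the dye term was fitted.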

How the data were processed

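RNA of 14 RNAi samples was measured on 1-colour Affymetrix arrays, and RNA of 18 differentiation samples on 2-colour arrays against untreated cells. The deposited RNAi values are log2 levels, normalized by the authors by RMA per the submitters' processing notes. The deposited 2-colour values are log ratios of treated over untreated cells, with normalization and log base not given in the sources used here. They were read as log2, and a positive value as higher in treated cells. Genes were named from the probe tables given with the data, and only probes with 1 symbol were used: of 45037 probe sets 34945 had 1, 932 several and 9160 none, and of 16657 ratio probes 13392, 87 and 3178. Where a gene had several probes, the one with the highest mean level, or on the ratio arrays the one with the most values, stood for it.

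All differences were fitted with limma 3.58.1 in R 4.3.3 (lmFit and eBayes, 2-sided) over all groups of a platform, and p-values were adjusted by Benjamini-Hochberg over all probes tested, 45037 probe sets and 16657 ratio probes. Figures were drawn with matplotlib 3.10.9. The fits were tested on simulated data. Replicate numbers of the ratio arrays mark the dye orientation: all 72 same-numbered pairs deviated together (correlation 0.51 to 0.92), so the fit with that term is given beside the other. On the RNAi arrays 5 of 13 same-numbered pairs had a correlation over 0.1, so they were not paired. Named genes were, for each comparison, the 5 members called with the largest rises and the 5 with the largest falls on the RNAi arrays, and on the ratio arrays the 4 largest of each. The isoform sets of complex II, complex IV and subunit c were also named, and other genes were chosen after their values were seen. The members and lists were chosen with earlier results of these data known. Alternatives were a replicate block, level and completeness filters, other normalization, means of a gene's probes, leaving out cross-matching probe sets and leaving out single arrays.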

Additional observations from a re-analysis of the deposited data

How the results depend on the processing

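The counts of members called after RNAi stayed within 1.5 times in all alternatives: 51, 22 and 49 for Pou5f1 RNAi, Nanog RNAi and their difference with a replicate block, 48, 18 and 44 after median centring, and 45, 20 and 39 of 89 without cross-matching probe sets. On the ratio arrays the replicate block, which is the dye orientation, moved the counts to 47 for RA, 38 for DMSO and 49 for HMBA, to 9, 6 and 2 for RA against DMSO, RA against HMBA and DMSO against HMBA, and to 4, 1 and 4 for day 6 against day 2 of RA, DMSO and HMBA. Scale normalization between arrays gave 0 for RA against HMBA. Leaving out DMSO day 4, chosen after seeing the data because it holds the array with the fewest values, gave 5 for DMSO and 0 for RA against DMSO. Without single arrays the counts were 47 to 52 for Pou5f1 RNAi, 16 to 22 for Nanog RNAi, 40 to 49 between them, 12 to 20 for RA, 8 to 16 for DMSO, 14 to 27 for HMBA, 1 to 3 for RA against DMSO, 0 to 2 for RA against HMBA, and 0 for DMSO against HMBA and for the 3 day comparisons. In all, 42 of 54 alternatives that leave out no single array were within 1.5 times. Of the 45 gene results named by rank 39 kept their call and direction in every alternative run, and 0 reversed. The others were Atp5d after Pou5f1 RNAi (mean of its probe sets), Cox7c and Ndufaf4 after Nanog RNAi, Cox7a2l with DMSO, and Sdhaf2 and Uqcrq with HMBA. Among 107 isoform results 82 kept call and direction, and 0 reversed; Cox8c after Pou5f1 RNAi was called with the replicate block (-0.23, adjusted p = 0.036). The cause of these moves was not tested. The day comparisons rest on 2 arrays for each inducer and day, with a median standard error of 0.30 without the dye term.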
